A study of Mus musculus with 2 samples.

Results

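The 36 genes described here act at the start and during the course of DNA synthesis (S phase). They comprise the replicative helicase and its loaders, DNA polymerases and fork proteins, enzymes of deoxynucleotide supply, the cyclins, kinases and E2F factors of S-phase entry, and chromatin and turnover factors. They were taken by name, matched by mouse Entrez ID to the deposited gene tables, and all 36 were found among 24532 gene IDs. RNA-seq levels come from sorted CD69+ double-positive (DP) thymocytes, which are T cell precursors that carry both CD4 and CD8, CD69 being gained upon signalling through the T cell receptor. The C57BL/6 mice were 6 weeks old. Of 2 libraries, 1 is labelled NSRP1f/fCD4Cre, the conditional knockout (KO), and 1 is labelled NSRP1f/f, the wild-type. Both labels thus name the floxed alleles, and CD4Cre acts in T-lineage cells from about the DP stage, so the KO is limited to those cells. KO and wild-type beside a value stand for these labels. The labels do not give the number of mice behind a library or the floxed exons.

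Cells license replication origins in G1, when Cdc6 and Cdt1 load rings of Mcm2 to Mcm7 onto DNA. At the start of S phase Cdc45 and the GINS complex turn each ring into an active helicase, and polymerases held by the sliding clamp Pcna copy the strands. Cyclin D with Cdk4 and cyclin E with Cdk2 release E2F factors, which drive the transcription of many of these genes. In the thymus, precursors divide as they become DP cells, and most DP cells then rest while their T cell receptor is tested.

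With 1 library per genotype no difference has a replicate check and no test was made. Levels are given with 95% exact Poisson intervals, ratios with 95% exact binomial ones, and neither covers more than counting error. Covered bases on annotated exons came to 5076 megabases in the KO-labelled library and 4199 megabases in that labelled wild-type, an estimated 25.1 megapairs of reads (KO) and 20.8 megapairs (wild-type). Nsrp1, the gene named in the KO label, which encodes the splicing-linked speckle protein NSrp70, stood at 29.6 TPM in the KO-labelled library and 29.7 TPM in that labelled wild-type. The ratio was 0.997 (0.908 to 1.09), so the RNA level does not check the labels, and every direction below is one between labelled libraries. Defining DP markers were abundant in both, 10 genes summing to 6446 TPM in the KO-labelled library and 6018 TPM in that labelled wild-type. Of 8 early thymocyte markers, 5 reached 1 TPM in either library and the 8 summed to 15.99 TPM (KO) and 17.5 TPM (wild-type). The 5 mature thymocyte markers summed to 309 TPM in the KO-labelled library and 363 TPM in that labelled wild-type. Markers of B cells summed to 61.4 TPM (KO) and 53.4 TPM (wild-type), and myeloid markers to 50.8 TPM (KO) and 68.5 TPM (wild-type). Thymic epithelial markers summed to 8.54 TPM (KO) and 7.08 TPM (wild-type). Hba-a1, Foxn1 and Krt5 were listed at 0 in both libraries.

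Because promoters of S-phase genes are textbook sites of E2F regulation, the promoter letters are shown before the levels. RefSeq promoters of build GRCm38.p6, from 250 bases before to 50 after an annotated start, were held for 29 of the 36 genes. For 28 genes a window belonged to a start in use, meaning within 100 bases of the start of a deposited transcript with at least 1 TPM in either library. The window of Cdc6 lies at the start of a transcript listed at 0 in both libraries and was left aside. Of the 28 genes, 13 (46.4%) held an E2F word, meaning TTTCCCGC, TTTGGCGC, TTTCGCGC or TTTGCCGC on either strand, at a start in use. The share was 4.79% of 8965 genes chosen in the same way from all those with at least 1 TPM. On the level of single promoters it was 13 of 32 (40.6%), against 4.42% of 10186. The 19 matches were centred from 181 bases before to 43 bases after the start, and 12 of them lay before it. Matches that lie on both strands of 1 stretch were counted separately, as in Mcm6 and Mcm5. CCAAT, searched on both strands, stood in the promoters of 18 of the 28 genes (64.3%), against 41.5% of the 8965 genes. The word TTTGAA, a core of the cell cycle element CHR, was found for 3 genes (10.7%, against 13.04%). A match describes letters and not a bound site.

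The 7 stretches below end at the base before the annotated start and run 5′ to 3′ on the strand of the gene, with E2F words in capitals. They were chosen to show words at genes with ratio intervals above 1 and at 2 genes, Dtl and Rfc3, whose intervals include 1, and to show Rrm2, the gene with the largest difference, which held none of the 4 words. They lie at chr12:24708054-24708253 (Rrm2, plus strand), chrX:93632156-93632355 (Pola1, minus), chr2:72476019-72476218 (Cdca7, plus), chr1:128359706-128359905 (Mcm6, minus), chr8:75109309-75109508 (Mcm5, plus), chr1:191575545-191575624 (Dtl, minus) and chr5:151651209-151651408 (Rfc3, minus) of GRCm38.p6.
Rrm2: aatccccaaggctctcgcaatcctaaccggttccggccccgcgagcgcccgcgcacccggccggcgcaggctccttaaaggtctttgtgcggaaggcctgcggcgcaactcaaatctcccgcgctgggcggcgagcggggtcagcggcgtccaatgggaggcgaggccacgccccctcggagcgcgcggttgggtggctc
Pola1: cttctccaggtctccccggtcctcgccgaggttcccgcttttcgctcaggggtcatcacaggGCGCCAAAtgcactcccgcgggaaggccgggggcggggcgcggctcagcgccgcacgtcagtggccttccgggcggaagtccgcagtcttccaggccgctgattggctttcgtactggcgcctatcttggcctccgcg
Cdca7: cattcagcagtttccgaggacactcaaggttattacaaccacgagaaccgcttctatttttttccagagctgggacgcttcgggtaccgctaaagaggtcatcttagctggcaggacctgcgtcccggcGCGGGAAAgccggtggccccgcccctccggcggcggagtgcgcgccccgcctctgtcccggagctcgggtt
Mcm6: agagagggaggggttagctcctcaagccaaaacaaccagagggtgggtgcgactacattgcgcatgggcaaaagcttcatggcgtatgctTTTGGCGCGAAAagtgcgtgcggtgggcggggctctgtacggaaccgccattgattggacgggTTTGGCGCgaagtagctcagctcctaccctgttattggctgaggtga
Mcm5: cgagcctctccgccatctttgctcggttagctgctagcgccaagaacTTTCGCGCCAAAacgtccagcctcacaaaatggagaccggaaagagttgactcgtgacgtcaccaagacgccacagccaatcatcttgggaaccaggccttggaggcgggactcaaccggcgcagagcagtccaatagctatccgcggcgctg
Dtl: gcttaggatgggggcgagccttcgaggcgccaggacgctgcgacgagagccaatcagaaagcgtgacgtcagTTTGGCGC
Rfc3: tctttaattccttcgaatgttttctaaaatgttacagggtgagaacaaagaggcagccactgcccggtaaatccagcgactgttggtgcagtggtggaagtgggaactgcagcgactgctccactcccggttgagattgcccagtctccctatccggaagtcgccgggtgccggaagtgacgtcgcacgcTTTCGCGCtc

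Members with an E2F word in these windows did not have the larger median difference. The median log2 fold change, KO over wild-type, was 0.37 over the 13 genes with a word and 0.54 over the 15 without one. E2f1 fell among those without by the start of a transcript at 1.25 TPM (KO) and 0.185 TPM (wild-type). The start of its main transcript had no window. Because the windows follow annotated starts, these medians cannot decide whether E2F words go with the difference. Among the 8965 genes the medians were -0.01 for 429 with a word and -0.06 for 8536 without. Rfc3 and Dtl, each with a word within 10 bases of the start, had log2 fold changes of -0.02 and 0.01. Rrm2, Cdc45, Tyms and Mcm10, which were among the highest members, held none of these 4 words in the windows searched. The first exon at the window of Cdc45 held 0 read pairs in both libraries, and that of Mcm10 0.955 (KO) and 0.173 (wild-type). For Cdc45 and Mcm10 the missing word therefore does not describe a start shown by reads.

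**Figure D1:**
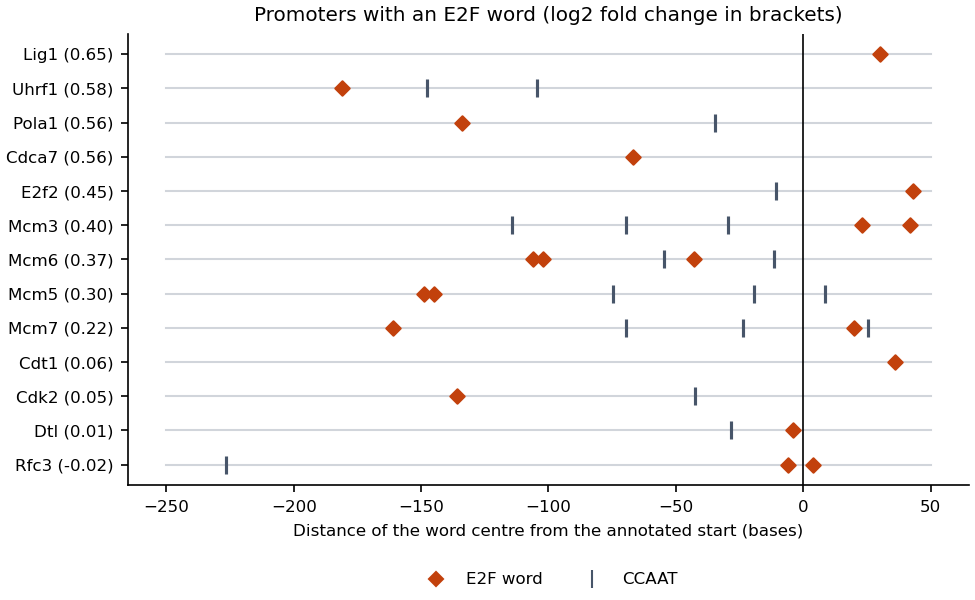
Positions of E2F words (diamonds) and CCAAT (bars) in the 13 promoters at starts in use with an E2F word, in bases from the annotated start at 0, one row per promoter from the highest log2 fold change (Lig1, 0.65) to the lowest (Rfc3, -0.02). Words lay both before and after the start. Only promoters with an E2F word are drawn, so every row holds one by selection.

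The 36 members were higher in the KO-labelled library almost without exception, by amounts that were mostly under 2-fold. They were chosen with earlier results of these data known, so their shares beside the background are a description. Of the 36 genes, 35 had a log2 fold change above zero, where 38.5% did of the 12029 genes that reached 1 TPM in either library. The fold change is log2 of (TPM + 1) in the KO-labelled library over (TPM + 1) in that labelled wild-type, and TPM is the authors' abundance per length. The exception, Rfc3, was above zero on upstream exons alone, with FPKM and with TPM scaled to the median ratio, and 53.5% (FPKM) and 49.2% (median ratio) of all genes were then above zero. The median of the 36 was 0.46 (quartiles 0.30 and 0.61), against -0.07 over all 12029 genes. A log2 fold change of 0.5 or more was reached by 16 members (background 3.37%) and 1 or more by Rrm2 alone (background 0.657%). None lay at -0.5 or below (background 6.42%) or at -1 or below (background 1.37%). The interval of the TPM ratio lay wholly above 1 for 32 members (background 16.3%) and wholly below 1 for none (background 35%). The other 4, Cdt1, Rfc3, Cdk2 and Dtl, had intervals that include 1. In bulk RNA, more cells that express a gene and more RNA per cell cannot be told apart. Mature thymocyte markers ran the other way, since 4 of 5 had ratio intervals below 1 and 1 above, with Klf2 at 19.3 TPM (KO) and 41.5 TPM (wild-type). Their part in the differences was not tested.

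Reads of some members may be shared with other genes, and these levels are uncertain. At least 5% of the 50-base words within the deposited exons, or of the exonic bases, coincide with another gene for 13 members. The share of words was 88.5% for Fen1 (Gm10143), 38.6% for Pcna (Pcna-ps2), 32.7% for Mcm7 (chiefly Gm5487) and 23.5% for Ccnd3 (chiefly Bysl). It was 7.68% for Gins2 (Gse1) and 6.52% for Rrm2 (chiefly Gm48445). Exons of Ints8, on the opposite strand, cover 53.9% of the exonic bases of Ccne2.

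**Figure D2:**
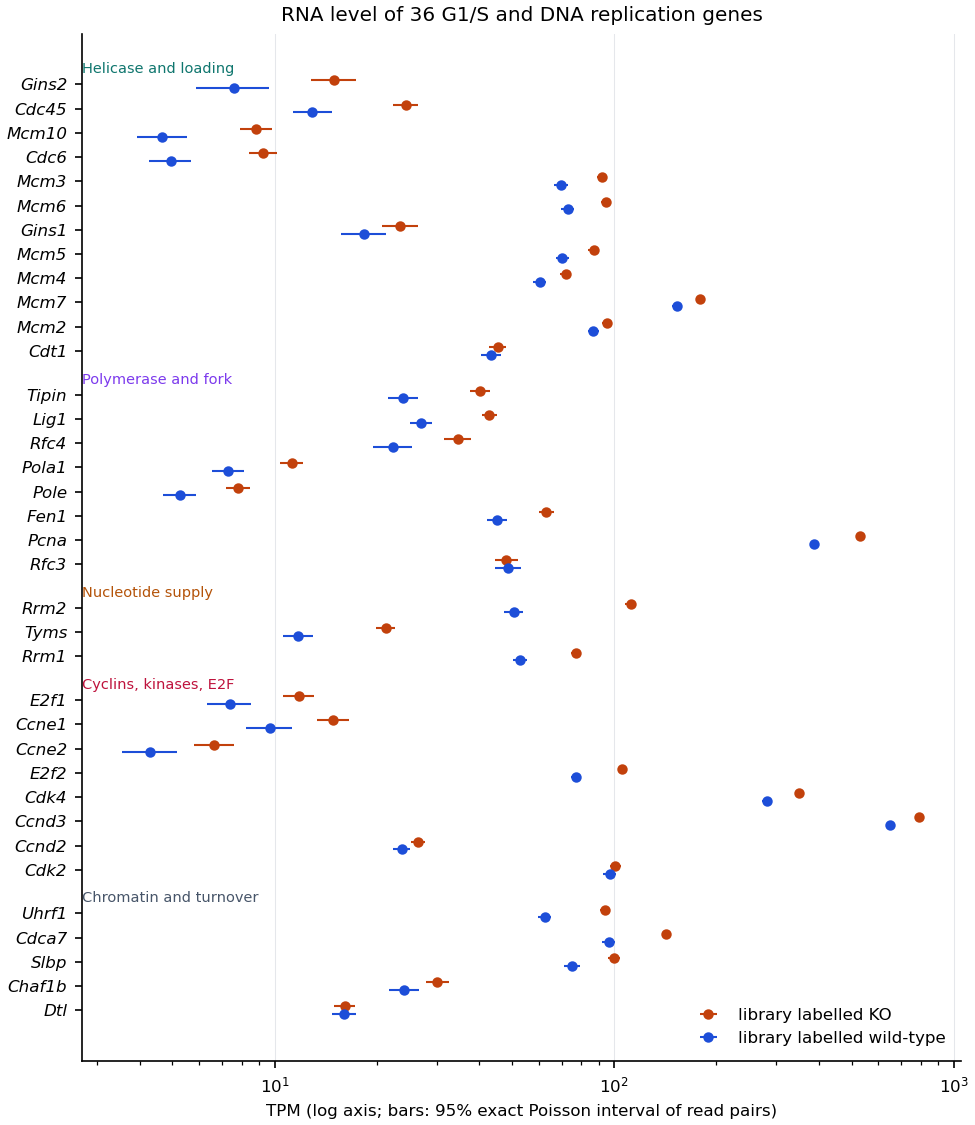
TPM on a log axis of the 36 genes in the KO-labelled library (orange) and that labelled wild-type (blue), with 95% exact Poisson intervals, grouped by role. Levels span from under 10 TPM (Ccne2, Mcm10, Pole) to 789.6 TPM (Ccnd3 in the KO-labelled library).

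Among helicase genes, the ring differed little. Cdc6, Cdc45, Gins2 and Mcm10 differed more, whereas Cdt1 and Gins1 did not exceed the highest ratio of the ring. The 12 members had a median log2 fold change of 0.36. Mcm2 to Mcm7, whose products form the ring, ranged from 71.9 to 179 TPM in the KO-labelled library and from 60.2 to 153 TPM in that labelled wild-type. All 6 were higher in the KO-labelled library, with ratios of 1.10 to 1.32. Mcm7 was the most abundant of the ring, at 179 TPM (174 to 184) in the KO-labelled library and 153 TPM (148 to 159) in that labelled wild-type. Mcm3 had the largest difference of the 6, with 92.0 TPM (88.7 to 95.4) in the KO-labelled library and 69.6 TPM (66.4 to 73.0) in that labelled wild-type. Mcm2 had the smallest, with 95.1 TPM (92.0 to 98.3) in the KO-labelled library, against 86.8 TPM (83.5 to 90.3) in that labelled wild-type. Mcm4 had a ratio of 1.19 (1.13 to 1.27) and Mcm5 one of 1.24 (1.17 to 1.31). Mcm6 stood at 94.8 TPM (KO) and 72.9 TPM (wild-type). The 6 genes lie on 5 chromosomes, with Mcm3 and Mcm6 both on chromosome 1.

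The genes that load or activate the ring were less abundant. Cdc6, the ATPase that loads the ring with Cdt1, stood at 9.25 TPM (8.43 to 10.1) in the KO-labelled library and 4.94 TPM (4.27 to 5.68) in that labelled wild-type, a ratio of 1.87 (1.58 to 2.23). Cdt1 itself stood at 45.3 TPM (KO) and 43.3 TPM (wild-type), with a ratio of 1.05 (0.955 to 1.15). The ratio intervals of the 2 loaders do not overlap.

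Cdc45, a core subunit of the active helicase, had 24.3 TPM (22.4 to 26.4) in the KO-labelled library and 12.9 TPM (11.3 to 14.7) in that labelled wild-type. Gins2, a subunit of the GINS complex, had 14.98 TPM (12.8 to 17.4) in the KO-labelled library and 7.58 TPM (5.88 to 9.60) in that labelled wild-type. Its partner subunit gene Gins1 had 23.4 TPM (KO) and 18.3 TPM (wild-type), a ratio of 1.28 (1.05 to 1.56). Mcm10, a factor of helicase activation, had 8.81 TPM (7.91 to 9.79) in the KO-labelled library and 4.66 TPM (3.93 to 5.50) in that labelled wild-type. The ratios of Cdc6, Cdc45, Gins2 and Mcm10, from 1.87 to 1.98, all exceed the highest of the ring.

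The median log2 fold change of polymerase and fork genes was 0.53 over 8 members, of which 7 were above zero (background 38.5%). Pcna, the sliding clamp, was the most abundant, at 529.9 TPM (518 to 542) in the KO-labelled library and 388 TPM (376 to 399.5) in that labelled wild-type. Tipin, which encodes a fork protection factor, had the highest ratio of the group, with 40.2 TPM (KO) and 23.9 TPM (wild-type) (1.68, 1.49 to 1.91). Lig1, the ligase that joins Okazaki fragments, stood at 42.9 TPM (KO) and 26.98 TPM (wild-type). The catalytic subunits of the priming polymerase alpha and the leading-strand polymerase epsilon were scarce. Pola1 stood at 11.2 TPM (10.4 to 12.1) in the KO-labelled library and 7.28 TPM (6.52 to 8.10) in that labelled wild-type. Pole stood at 7.81 TPM (7.21 to 8.45) in the KO-labelled library and 5.24 TPM (4.69 to 5.85) in that labelled wild-type. Fen1, the nuclease that trims Okazaki flaps, had a ratio of 1.40 (1.28 to 1.52). On its first exon alone the ratio was 1.10 (0.795 to 1.54), an interval that includes 1.

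The 2 members that are subunits of the clamp loader differed from each other. Rfc4 had 34.6 TPM (31.5 to 37.8) in the KO-labelled library and 22.3 TPM (19.5 to 25.3) in that labelled wild-type. Rfc3 had 48.1 TPM (44.5 to 51.9) in the KO-labelled library and 48.8 TPM (44.6 to 53.2) in that labelled wild-type. Their ratio intervals, 1.32 to 1.82 for Rfc4 and 0.877 to 1.11 for Rfc3, do not overlap. Of subunit genes that are no members, Rfc1 had a ratio of 1.03 (0.973 to 1.09). That of Rfc2 was 1.13 (1.04 to 1.22) and that of Rfc5 1.17 (1.05 to 1.31), all below Rfc4. In Rfc4, 13.2% of exonic bases overlap Eif4a2 on the opposite strand, a gene at 449.8 TPM (KO) and 474 TPM (wild-type).

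Among the 5 groups, the 3 members of nucleotide supply had the highest median log2 fold change, 0.81. Without members that share reads, Rrm1 alone stayed in, at 0.54, below the median of 0.56 over 5 polymerase and fork genes. Rrm2 (chromosome 12, 24708254 to 24714146 in mm10), the small subunit of ribonucleotide reductase, stood at 112 TPM (108 to 116) in the KO-labelled library and 50.5 TPM (47.4 to 53.8) in that labelled wild-type. Its ratio of 2.21 (2.05 to 2.38) was the highest of the 36 genes, and 99.6% of the 12029 genes had a lower fold change. Rrm1, the large subunit of the same enzyme, stood at 77.1 TPM (74.5 to 79.7) in the KO-labelled library and 52.9 TPM (50.5 to 55.4) in that labelled wild-type, a ratio of 1.46 (1.38 to 1.54). Rrm2 stood above Rrm1 in the KO-labelled library, whereas in that labelled wild-type the intervals of the 2 subunits overlap. Tyms, which makes thymidylate, stood at 21.2 TPM (19.9 to 22.7) in the KO-labelled library and 11.7 TPM (10.6 to 12.96) in that labelled wild-type.

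The median log2 fold change of cyclin, kinase and E2F genes was 0.38 over 8 members, all of them above zero (background 38.5%). Ccnd3, a D-type cyclin gene and the most abundant member, stood at 789.6 TPM (778 to 801) in the KO-labelled library and 647 TPM (635 to 659) in that labelled wild-type. Ccnd2 was far lower, at 26.4 TPM (25.2 to 27.7) in the KO-labelled library and 23.7 TPM (22.3 to 25.05) in that labelled wild-type, a ratio of 1.12 (1.04 to 1.20). Upstream of its terminal exon the log2 fold change of Ccnd2 was 0.03, against 0.15 for the whole gene. Cdk4, the partner kinase of D cyclins, stood at 349.8 TPM (340.4 to 359) in the KO-labelled library and 281 TPM (272 to 291) in that labelled wild-type. The E cyclins, partners of Cdk2 at S-phase entry, were scarce, and each had a ratio of 1.54. Ccne1 stood at 14.9 TPM (13.3 to 16.6) in the KO-labelled library and 9.68 TPM (8.25 to 11.3) in that labelled wild-type. Ccne2 stood at 6.64 TPM (KO) and 4.30 TPM (wild-type). Cdk2 stood at 100.7 TPM (96.9 to 105) in the KO-labelled library and 97.0 TPM (92.8 to 101.4) in that labelled wild-type, a ratio of 1.04 (0.979 to 1.10).

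Of the 2 E2F genes among the members, E2f2 was the more abundant. E2f2 stood at 105 TPM (103 to 108) in the KO-labelled library and 77.1 TPM (74.4 to 79.8) in that labelled wild-type. E2f1 stood at 11.8 TPM (10.6 to 13.1) in the KO-labelled library and 7.36 TPM (6.31 to 8.54) in that labelled wild-type, a ratio of 1.60 (1.33 to 1.93). The ratio intervals of the pair overlap, since that of E2f2 runs from 1.31 to 1.43. E2f3, another activator E2F that is no member, stood at 12.6 TPM (KO) and 12.9 TPM (wild-type), a ratio of 0.976 (0.869 to 1.10).

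The median log2 fold change of chromatin and turnover genes was 0.41 over 5 members. Uhrf1, which guides maintenance methylation to new DNA, stood at 93.7 TPM (90.7 to 96.8) in the KO-labelled library and 62.4 TPM (59.6 to 65.3) in that labelled wild-type. Cdca7, a zinc finger gene needed for remodelling by Hells, stood at 142 TPM (138 to 147) in the KO-labelled library and 96.3 TPM (92.1 to 100.7) in that labelled wild-type. Slbp, which binds the stem-loop of histone mRNA, had a ratio of 1.33 (1.24 to 1.43), and Chaf1b, a subunit of the chromatin assembly factor, one of 1.25 (1.10 to 1.42). Dtl, the substrate receptor that marks Cdt1 for destruction in S phase, stood at 16.1 TPM (15.0 to 17.3) in the KO-labelled library and 15.98 TPM (14.7 to 17.3) in that labelled wild-type, a ratio of 1.01 (0.903 to 1.12). Both Dtl and the gene of its substrate Cdt1 thus had ratio intervals that include 1.

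**Figure D3:**
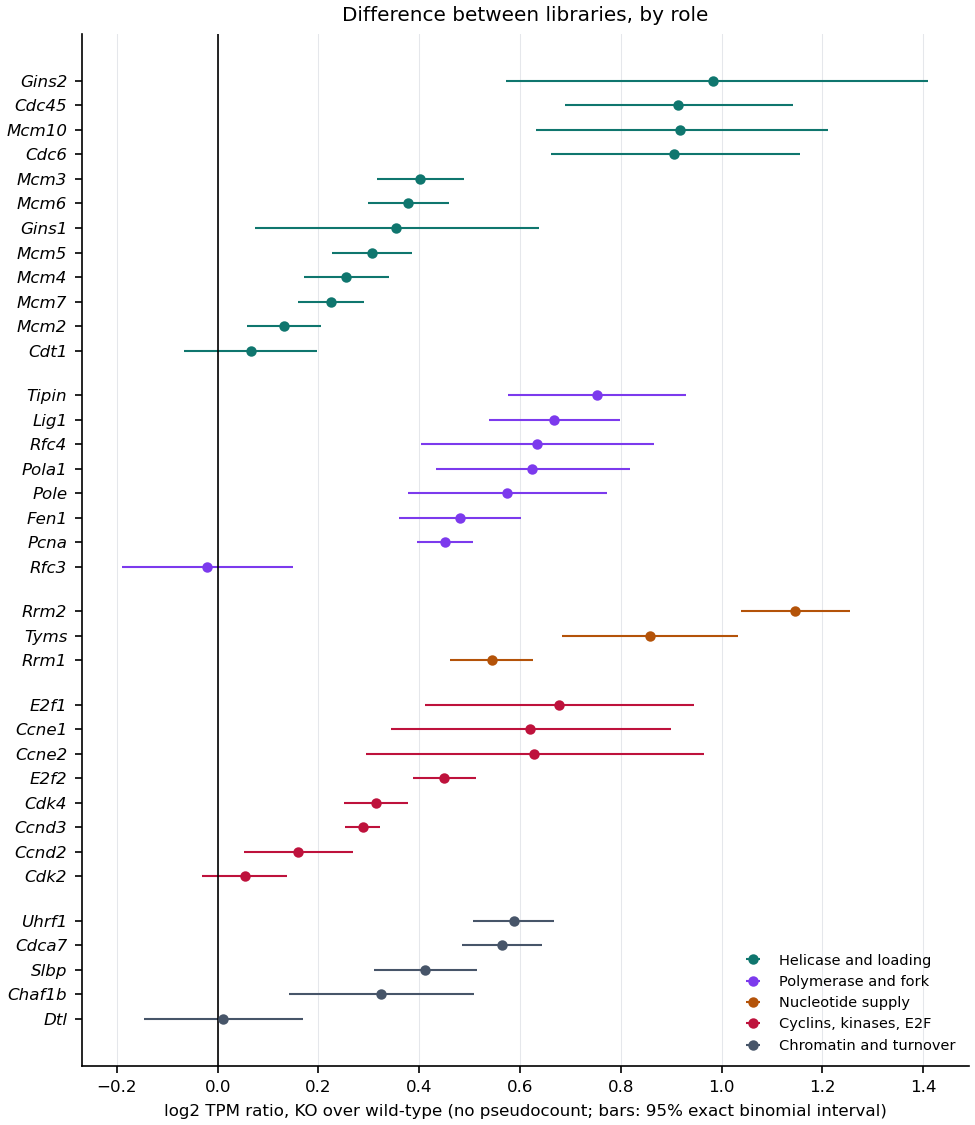
TPM ratio on the log2 scale, KO over wild-type, of each of the 36 genes with its 95% exact binomial interval, coloured by role. Only Cdt1, Rfc3, Cdk2 and Dtl have intervals that reach zero, and Rrm2 stands furthest to the right.

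Fold changes were compared by level. The 8 genes under 10 TPM in the library labelled wild-type (Mcm10, Cdc6, Gins2, Pola1, Pole, Ccne1, Ccne2 and E2f1) had a median log2 fold change of 0.59, and 7 of them reached 0.5. The 12 genes at 10 to 50 TPM there had a median of 0.40, and 5 reached 0.5. Of the 16 genes at 50 TPM or more there, 4 reached 0.5, Rrm2 among them, and their median was 0.39, close to that of the middle class. Among all genes in the members' range of levels, 6.60% of those under 10 TPM, 2.50% of those at 10 to 50 TPM and 0.839% of those at 50 TPM or more reached 0.5. Across the 36 genes, Spearman's rho between mean log2(TPM + 1) and log2 fold change was -0.45 (Pearson's r -0.37), as a description over genes that share both libraries. Over all 12029 genes rho was 0.13. The class of level uses the same wild-type values as the fold change, so the 2 measures are not independent.

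Exon depth in TPM-equivalents was compared for 350 of the 484 exons of the most abundant transcripts, those with at least 10 read pairs in each library, and 312 of the ratios, KO over wild-type, were above 1 (background 28.6% of 95907 exons). For 22 genes every exon compared had a ratio above 1 (background 16.5% of 11142 genes). Rrm2 was covered at a ratio of 1.87 to 2.49 in its 10 exons, Rrm1 at 1.17 to 1.82 in its 19 exons and Pcna at 1.25 to 1.52 in its 6 exons. Lig1 had ratios above 1 in all 27 exons compared. Some other members were uneven. Chaf1b had 8 of 13 ratios above 1, from 0.703 in exon 2 to 1.63 in exon 12. Mcm4 ran from 0.786 in exon 1 to 1.58 in exon 12, and Mcm3 from 0.989 in exon 1 to 1.64 in exon 15. Ccnd2 had 3 of 5 ratios above 1. Rfc3, whose gene ratio was 0.986, ranged from 0.827 to 1.15 over its 9 exons, with 5 above 1. Exons of 1 gene share the library, so they are no replicate check on each other.

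Terminal exons were also set against the rest of each gene, because that exon was higher relative to the rest in the KO-labelled library by a median of 0.19 on the log2 scale over 8034 genes for which each part held 50 or more read pairs. Over the 28 members of that kind the median was 0.14. Upstream of the terminal exon, 33 of the 36 genes had a log2 fold change above zero (background 31.8% of 11260 genes) and the median was 0.43, against -0.14 over all genes. Dtl, Cdk2 and Cdt1 were the 3 at or below zero there. Dtl had 13.6 TPM-equivalents upstream in the KO-labelled library and 16.1 in that labelled wild-type, but 18.9 (KO) and 15.8 (wild-type) in its terminal exon, so its total combines parts that differ in direction. Gins2, at 17.8 TPM-equivalents upstream in the KO-labelled library and 8.23 in that labelled wild-type, joined Rrm2 past a log2 fold change of 1 on these exons, with 1.02 against 0.90 for the whole gene. Of the 28 members with 50 or more read pairs in each part, Pola1 had a terminal exon higher by 0.52 than the rest (background 6.16%) and Tyms one lower by 0.53 (background 0.685%). The terminal exon of Cdc45 was also apart, by 1.02, but held only 8.15 read pairs (KO) and 0.911 (wild-type). In Tyms the annotated terminal exon of 2934 bases was hardly covered, at 3.49 TPM-equivalents in the KO-labelled library and 2.46 in that labelled wild-type. At such levels the pseudocount of 1 lowers the log2 fold change, so the call of Tyms past 0.5 depends on it. The upstream exons of Tyms stood at 81.5 TPM-equivalents in the KO-labelled library and 43.2 in that labelled wild-type. The TPM of Tyms therefore stands below the depth of its upstream exons, as it does for Cdc6, whose upstream exons stood at 16.8 TPM-equivalents (KO) and 9.74 (wild-type).

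**Figure D4:**
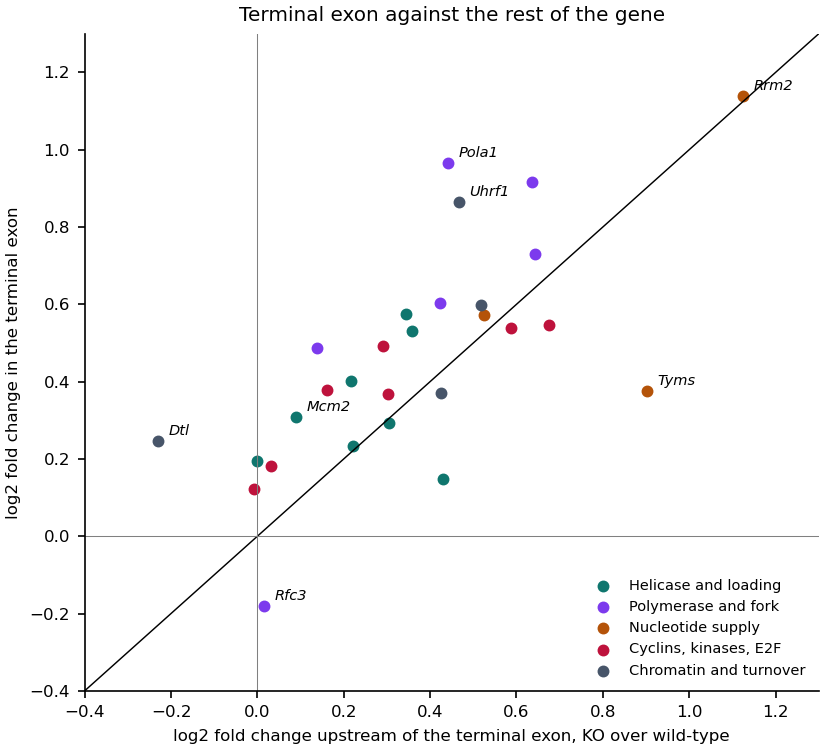
Log2 fold change of the terminal exon (vertical) against that of the other exons (horizontal), KO over wild-type, for the 28 genes whose parts each held 50 or more read pairs, with the line of equality. Most genes lie above zero on both axes; Tyms lies furthest below the line, and Pola1 and Dtl lie above it.

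Differences in transcript shares were about as frequent among the members as among all genes. Of 14 members with at least 2 transcripts and 10 TPM in both libraries, 3 had a share that differed by 10 percentage points or more (background 27.7% of 3032 genes). These were Uhrf1, Slbp and Fen1, all of them among the members whose reads may be shared with other genes. None reached 25 points, where 201 of the 3032 genes did. Ccne2, which is below 10 TPM and was not counted, had larger ones, with NM_001282943 at 67.1% (KO) and 41.1% (wild-type) and NM_009830, only 3 bases shorter, at 15.9% (KO) and 42.99% (wild-type). Uhrf1 has 2 annotated starts, at 56303337 and 56304313 on the plus strand of chromosome 17. Transcripts from the first start summed to 77.4 TPM in the KO-labelled library and 37.6 TPM in that labelled wild-type, and those from the second to 16.4 TPM (KO) and 24.8 TPM (wild-type). The share of the first start was 82.5% in the KO-labelled library and 60.3% in that labelled wild-type. Its first exon of 225 bases held 76.5 read pairs in the KO-labelled library and 25.7 in that labelled wild-type. The first exon of the second start, of 81 bases, held only 4.99 (KO) and 4.32 (wild-type), so the split rests on few reads. The E2F word of Uhrf1 lies 181 bases before the second start, and the window of the first start holds none.

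Slbp has 2 shorter transcripts, which lack its exon 3 of 105 bases or its exon 4 of 60 bases. They summed to 21.8% of its TPM in the KO-labelled library and 9.64% in that labelled wild-type. Depth ratios of those exons, 1.29 (1.00 to 1.66) and 1.21 (0.877 to 1.69), overlap those of exons 2 and 5, 1.32 (1.02 to 1.71) and 1.40 (1.12 to 1.76). In Fen1, NM_007999 of 2222 bases took 46.2% in the KO-labelled library and 57.9% in that labelled wild-type, and NM_001271615 of 2106 bases took 34.8% (KO) and 23.7% (wild-type). Cdk2, under that threshold, has a longer transcript, NM_183417, with 49.4 TPM in the KO-labelled library and 40.0 TPM in that labelled wild-type. Its shorter form, NM_016756, had 51.3 TPM (KO) and 57.0 TPM (wild-type).

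A gene on the other strand started within 1000 bases upstream of 7 members (19.4%), against 14.9% of the 12029 genes. Of the 7 neighbours 3 were above zero (background 38.5%), a share near the background. Their median log2 fold change was -0.14, and their partners among the members one of 0.47. Ufd1, which starts 322 bases from Cdc45, stood at 83.8 TPM in the KO-labelled library and 79.2 TPM in that labelled wild-type. Prkdc, 466 bases from Mcm4, was at 11.8 TPM (KO) and 15.03 TPM (wild-type), and Ints7, 92 bases from Dtl, at 45.6 TPM (KO) and 50.4 TPM (wild-type). Pxmp2, 151 bases from Pole, was the one neighbour above 0.5, at 3.07 TPM (KO) and 0.698 TPM (wild-type).

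Other genes of the same pathways, from 5 lists, had a lower median. Of 116 genes 114 reached 1 TPM in either library, and their median log2 fold change was 0.13, with 80 above zero (background 38.5%). At 0.5 or more were 13 (background 3.37%), none at 1 or more, and 1, Samhd1, at -1 or below (background 1.37%). The members were chosen with results of these data known, so the gap between them and these lists is a description.

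Log2 fold changes of origin recognition and firing genes had a median of 0.02 over 18 genes, with 9 above zero (background 38.5%). Gmnn, which encodes the Cdt1 inhibitor geminin, was the highest, at 48.4 TPM in the KO-labelled library and 31.4 TPM in that labelled wild-type, followed by the GINS subunit gene Gins3 at 14.03 TPM (KO) and 10.8 TPM (wild-type). The lowest were subunits of the origin recognition complex, Orc1 at 3.66 TPM in the KO-labelled library and 5.18 TPM in that labelled wild-type, and Orc3 at 32.7 TPM (KO) and 37.8 TPM (wild-type). The other fork genes had a median of 0.17 over 25 genes, with 22 above zero (background 38.5%). Highest were Clspn, a checkpoint mediator, at 15.2 TPM (KO) and 9.22 TPM (wild-type), and Rnaseh2b at 39.95 TPM (KO) and 25.7 TPM (wild-type). Lowest were Pold4, a polymerase delta subunit gene, at 48.4 TPM (KO) and 59.4 TPM (wild-type), and Atad5 at 12.8 TPM (KO) and 14.99 TPM (wild-type).

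The other nucleotide genes had a median of 0.13 over 28 genes, with 21 above zero (background 38.5%). Tk1, the thymidine kinase of S phase, stood at 39.8 TPM in the KO-labelled library and 20.2 TPM in that labelled wild-type (log2 fold change 0.94), and Dut, which removes dUTP, at 81.2 TPM (KO) and 49.9 TPM (wild-type) (0.69). Samhd1, which degrades deoxynucleotides, was the lowest, at 24.2 TPM (KO) and 56.9 TPM (wild-type) (-1.20), and Ctps2 stood at 27.5 TPM (KO) and 35.7 TPM (wild-type). Of genes chosen after their values were seen, Gart, of purine synthesis, stood at 66.7 TPM (KO) and 62.2 TPM (wild-type), and Cad, of pyrimidine synthesis, at 16.1 TPM (KO) and 17.4 TPM (wild-type). The reductase subunit gene Rrm2b, which p53 induces, stood at 9.06 TPM in the KO-labelled library and 9.45 TPM in that labelled wild-type.

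Cell cycle control genes had a median of 0.02 over the 27 of 29 genes with at least 1 TPM, with 15 above zero (background 38.5%). E2f8, an E2F repressor gene that is itself expressed in S phase, stood at 19.2 TPM in the KO-labelled library and 9.53 TPM in that labelled wild-type, and the cyclin A gene Ccna2 at 70.7 TPM (KO) and 36.7 TPM (wild-type). Lowest were Tfdp2, a dimer partner of E2F, at 16.9 TPM (KO) and 22.3 TPM (wild-type), and the kinase inhibitor gene Cdkn1c at 3.21 TPM (KO) and 4.45 TPM (wild-type). Outside that rule, Cdkn1b, which encodes p27, was at 179.8 TPM in the KO-labelled library and 218 TPM in that labelled wild-type. The kinase inhibitor genes Cdkn2c and Cdkn2d went the other way. Cdkn2c was at 48.3 TPM (KO) and 38.1 TPM (wild-type), and Cdkn2d at 236 TPM (KO) and 200 TPM (wild-type). Myc was at 43.3 TPM (KO) and 41.7 TPM (wild-type). The chromatin assembly list had a median of 0.17 over 16 genes, 13 of them above zero (background 38.5%). Cdca7l (12.4 TPM in KO and 6.50 TPM in wild-type) and the histone chaperone gene Asf1b (49.8 TPM in KO and 30.1 TPM in wild-type) were highest, and the ubiquitin ligase genes Ddb1 (227 TPM in KO and 247.5 TPM in wild-type) and Cul4b (39.2 TPM in KO and 40.4 TPM in wild-type) lowest.

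The median log2 fold change of G2/M genes, which act after replication, was 0.78 over 35 genes. Above zero were 34 of them (background 38.5%), and 30 were at 0.5 or more (background 3.37%). Birc5 (103 TPM in KO and 35.7 TPM in wild-type) and Tpx2 (39.3 TPM in KO and 18.2 TPM in wild-type) were highest there, and Smc4 (369 TPM in KO and 492 TPM in wild-type) and Ncapd2 (122 TPM in KO and 115 TPM in wild-type) lowest. Whether the G2/M genes differed more than the replication genes was not tested.

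**Figure D5:**
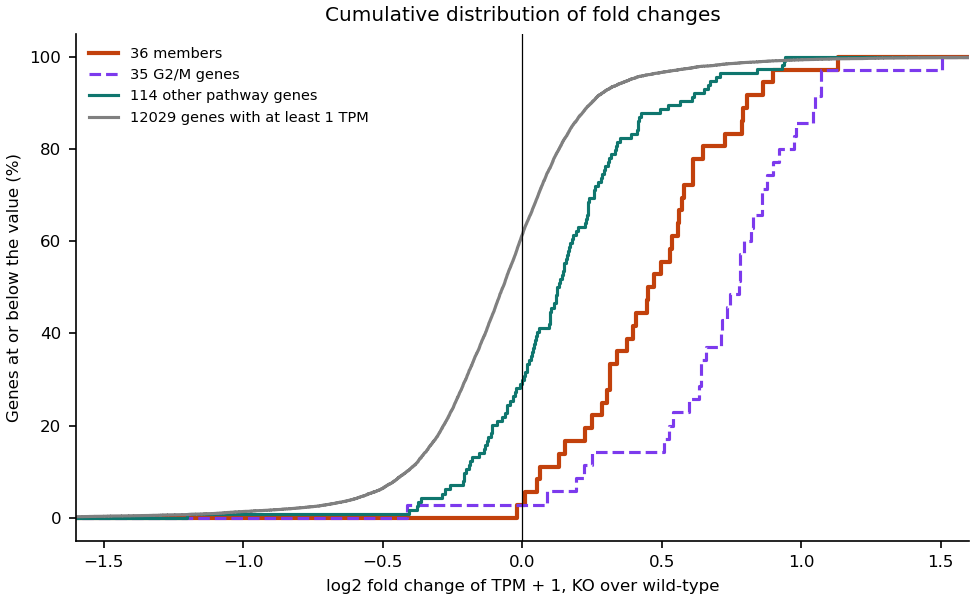
Cumulative share of genes by log2 fold change of TPM + 1, KO over wild-type, for the 36 members, 35 G2/M genes, 114 other pathway genes and 12029 genes with at least 1 TPM. The curves cross 50% near their medians of 0.46, 0.78, 0.13 and -0.07.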

How the data were processed

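RNA-seq of 2 libraries, 1 labelled KO and 1 labelled wild-type, was used. Libraries came from Trizol-extracted total RNA and a TruSeq kit, per the labels' protocols. HISAT2 and the build mm10 (GRCm38) are named in the submitters' processing notes, and per the file headers the authors quantified RefSeq transcripts with StringTie 1.3.3b. The sources used here do not state the aligner version, filters or strand handling, and overlapping genes may therefore exchange reads. The deposited tables give TPM (scaled to 1000000 per library), FPKM and coverage (mean depth per base, not scaled to library size) per gene, and the same with depth per exon for transcripts.

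Rows of 1 gene ID were summed, and 24462 of 24532 IDs matched a symbol in RefSeq GRCm38.p6. Read pairs were estimated as covered bases divided by 202, since 21.0% and 20.1% of transcripts with few reads (KO, wild-type) had covered bases no more than 2 off a multiple of it (2.48% by chance). The comparison used a pseudocount of 1 TPM and left out genes below 1 TPM in both libraries. Genes were called by size (log2 fold change of 0.5 or 1), not by a test. The 5 further pathway lists were written by hand from general knowledge. Named genes were the 36 members, Nsrp1, sorting markers, the 2 highest and 2 lowest of each list, and members with transcript shares 10 percentage points or terminal exons 0.5 (log2) apart, other genes being chosen after their values were seen. Members and lists were chosen with earlier results of these data known. The depth of an exon was summed over all transcripts of its gene. Shared words are 50-base words of the GENCODE M21 transcript, within the exons deposited, that also occur in transcripts of other genes. Alternatives were the pseudocount, the filter, FPKM, 2 rescalings, exclusion of terminal exons and, added after seeing the data, exclusion of genes that share reads. PCR copies are not independent molecules. Python 3.11.15, pandas 2.3.3, numpy 2.4.6, matplotlib 3.10.9 and scipy 1.17.1 were used.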

Additional observations from a re-analysis of the deposited data

How the results depend on the processing

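The median log2 fold change of the 36 genes ran from 0.40 to 0.53 when pseudocounts of 0.1 and 5 TPM, FPKM, scaling to the median ratio, totals without ribosomal protein genes, upstream exons alone, no filter or a filter of 5 TPM were used, and 33 to 36 of the 36 were above zero. The share of all genes above zero ran from 31.8% (upstream exons alone) to 53.5% (FPKM) under these alternatives. FPKM, with a pseudocount of 1 FPKM, moved the median of all genes to 0.02. Its calls at 1 or more in size were 51 higher and 50 lower, against 79 and 165 with TPM. FPKM values were lower than TPM here, so that pseudocount weighs more. Calls with a pseudocount of 5 TPM were 21 higher and 34 lower. A pseudocount of 5 TPM lowered the median of the nucleotide group to 0.65. Without terminal exons the genes at 1 or more numbered 2, Rrm2 and Gins2. An alternative chosen after seeing the data left out 13 genes that share 5% or more of their words or exonic bases with another gene. In the remaining 23 genes, 22 were above zero (background 38.5%), 9 reached 0.5 (background 3.37%) and 0 reached 1 (background 0.657%). Their median was 0.40, with 0.54 for the nucleotide group (Rrm1 alone) and 0.56 for the polymerase group, which then ranked first. Among single genes, the values moved beyond counting error for 14 genes with FPKM, 6 without terminal exons (Fen1, Ccnd2, Ccnd3, E2f2, Uhrf1 and Dtl), 5 with the median ratio and 1 with a pseudocount of 5 TPM. No paired analysis was possible because each genotype has 1 library. Depth limits Gins2 most, with 173 read pairs in the library labelled KO and 68.0 in that labelled wild-type, the fewest of the 36 genes.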
